A study of Mus musculus with 18 samples.

Results

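The comparison described here set quadriceps muscle of 3 dyW mice against quadriceps of 3 wild-type (WT) mice, all from libraries named for PBS, the vehicle arm of the study. These are 6 of the 18 libraries deposited, chosen by the group in their library names, with 1 library per mouse. The dyW mice carry the B6.129S1(Cg)-Lama2tm1Eeng/J allele, a knockout of the laminin-α2 gene, and the WT mice were C57BL/6J. The dyW libraries came from the males M15 and M24 and the female M23, and the WT libraries from the males M14 and M20 and the female M21. Their age label is 3 weeks, whereas the protocol of the same records gives 5 weeks at collection. PBS is named only in the library names, and its dose, route and duration are not given in the sources used here. The remaining libraries come from untreated mice with an age label of 5 weeks (3 WT and 4 dyW) and from mice named for TD139 (2 WT and 3 dyW). Messenger RNA was sequenced from whole muscle, so each value averages fibres and every other cell in the tissue.

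Laminin-α2 is the α chain of laminin-211, the main laminin of the muscle basement membrane. It ties the fibre surface to the surrounding matrix through dystroglycan and integrin α7β1. Its loss causes a congenital muscular dystrophy in people (LAMA2-CMD), and the dyW mouse is a model of it. In dystrophic muscle fibres die and are replaced: satellite cells form new fibres that pass through embryonic and neonatal forms of the contractile proteins, macrophages clear debris, and fibroblasts lay down matrix.

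Values are given as RPKM, the deposited reads per kilobase of exon scaled to the depth of the library, in the order M14, M20, M21 for WT and M15, M23, M24 for dyW. A gene is called when its Benjamini-Hochberg adjusted p is under 0.05 in edgeR's quasi-likelihood test on the exon read counts. Fold changes are on the log2 scale, dyW against WT, after TMM scaling, which RPKM lack. The TMM factors were 1.06 to 1.24 in dyW and 0.84 to 1.05 in WT, so RPKM ratios of genes higher in dyW exceed the fitted fold changes.

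The 6 libraries held 15814395 to 42592706 exon reads, the fewest in dyW M15. All 6 had high levels of fibre transcripts, with Acta1, skeletal α-actin, between 19320.4 and 27272 RPKM. Library WT M20 stood apart from both other WT libraries: the summed RPKM of 18 slow fibre genes was 3772 in M20 against 278 and 281 in M14 and M21, and 754 to 1214 in dyW. The summed RPKM of 16 Schwann cell and nerve genes was 865 in M20 and 62.7 to 123 in the other 5 libraries. The 14 adipocyte genes summed to 1028 RPKM in M20, 367 and 369 in the other WT libraries and 642 to 1104 in dyW. Lama2 in M20 was at a WT level (4.58 RPKM). Library dyW M15 also differed from the other dyW libraries. Its 30 proliferation genes summed to 64.5 RPKM against 35.3 and 32.2, with 26.5 to 29.7 RPKM in WT. Its 7 erythroid genes summed to 2429 RPKM against 420.5 and 322, with 755 to 1425 RPKM in WT. For erythroid genes M15 was thus above every WT library, and M23 and M24 were below every WT library. Results that rest on M20 are given with and without it, and counts of list members are given without other libraries where they move by more than 1.5 times.

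**Figure D1:**
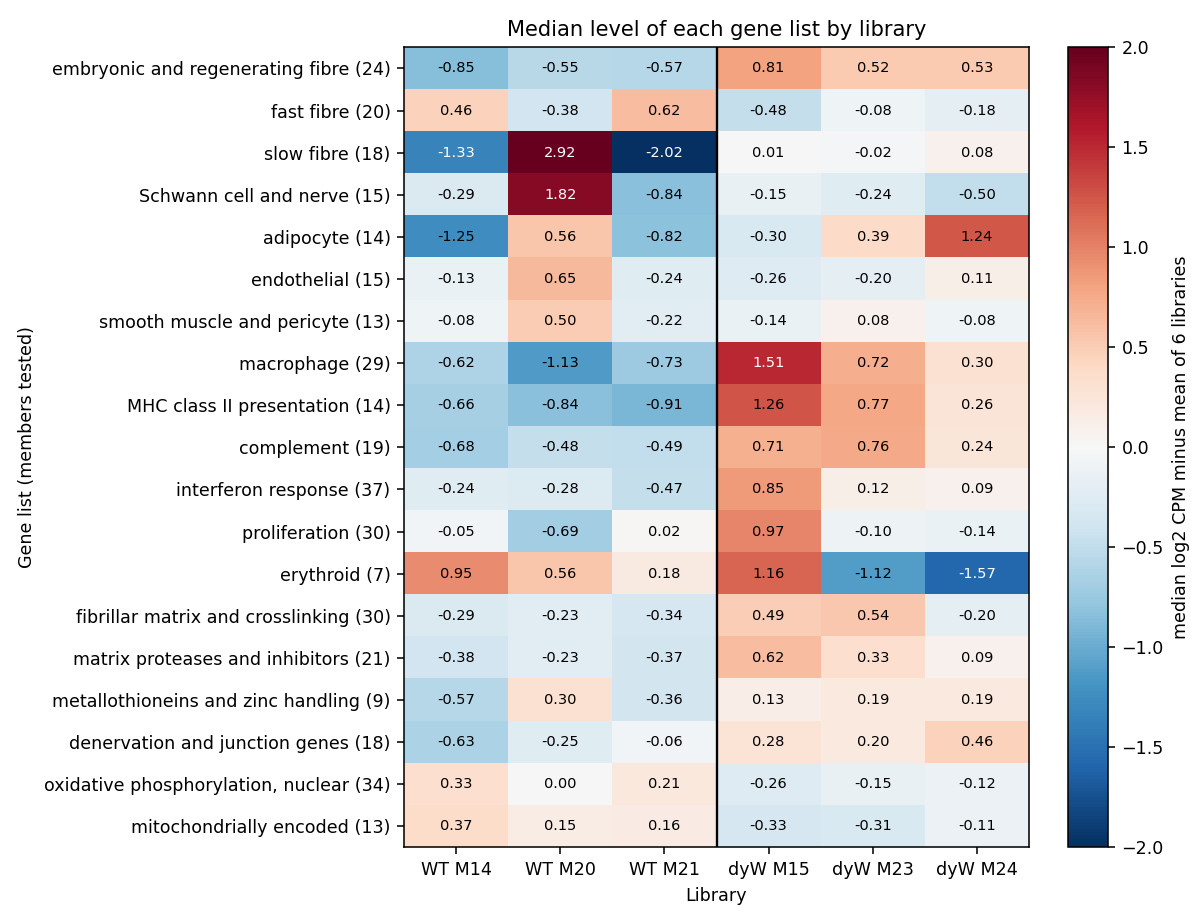
Median level of 19 gene lists in each of the 6 libraries: rows are lists with the number of members tested, columns are libraries, and each cell is the median over members of log2 CPM minus that gene's mean over the 6 libraries. M20 is the WT column with a slow fibre value of 2.92 and a Schwann value of 1.82, and M15 has the highest macrophage, interferon and proliferation values.

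Of 15331 genes tested, 368 were higher in dyW (2.4%) and 43 were lower (0.28%), and the median log2 fold change of all tested genes was -0.03. An unadjusted p under 0.05 was found for 2315 of the 15331, the share to set beside such counts in lists. DESeq2 called 676 higher and 169 lower of the 16084 genes to which it gave an adjusted p. Among the genes called by edgeR, all 368 higher genes and 42 of the 43 lower ones had no overlap between the 3 dyW and the 3 WT libraries. Overlap was counted on log2 CPM after TMM scaling. That pattern alone was present in 11.1% of tested genes for higher and 6.51% for lower. Without M20, 465 of 15256 genes were higher (3.05%) and 136 were lower (0.891%), with a median of 0.02. These 601 calls are 3.94% of the genes tested, against 2.68% with M20. Of them, 328 were shared with the 3 against 3 comparison in the same direction and 273 were not called with M20. Of the 411 calls with M20, 83 were not called without it. The total of 411 calls fell to 129 without M15, 177 without M23, 177 without M14 and 125 without M21. Across the full comparison and its 15 alternatives, 87 genes were called higher and 4 lower every time. M15 was the highest of the 3 dyW libraries for 282 of the 368 higher genes. The estimate of spread was shared with the 5 TD139 libraries. With the 6 vehicle libraries alone, 180 of 14497 genes were called higher and 13 lower. Higher calls were then 11 of 29 macrophage, 7 of 14 MHC class II and 6 of 24 regenerating fibre genes. Complement had 4 of 18 and matrix proteases 3 of 20, while metallothioneins and zinc handling kept 3 of 9.

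**Figure D2:**
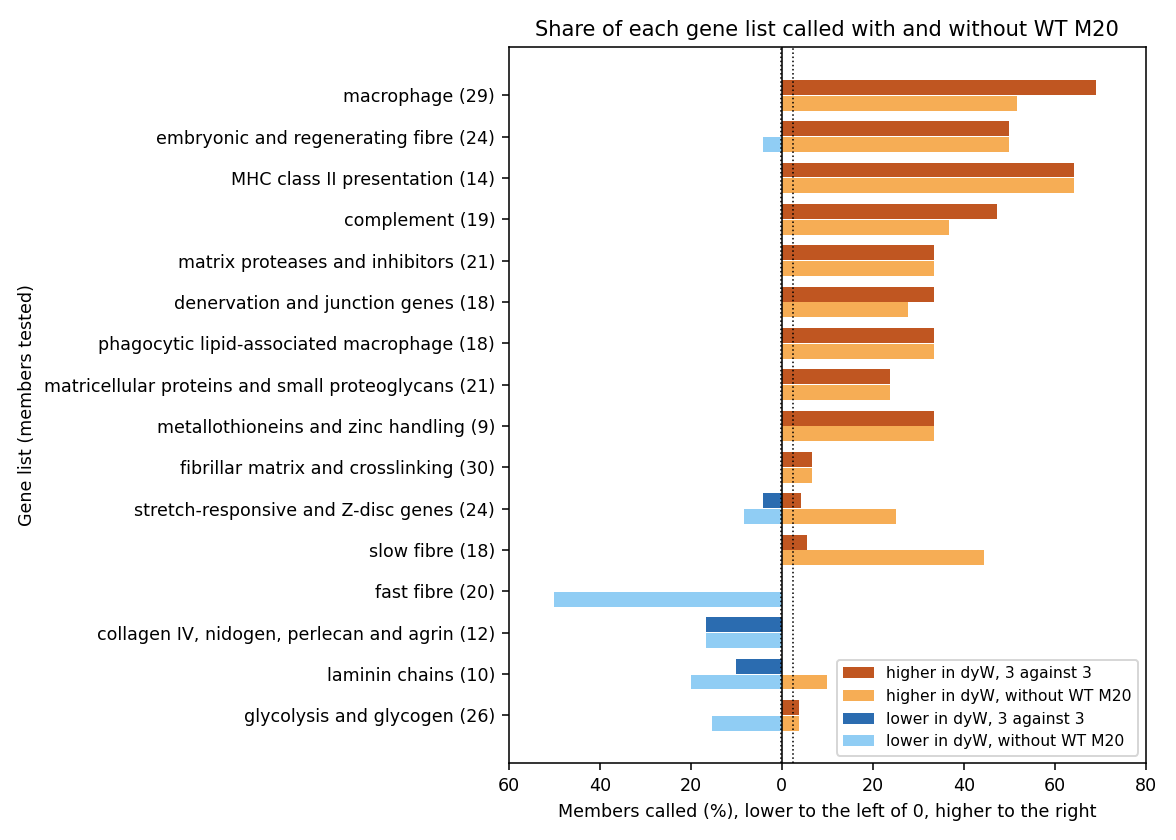
Percentage of tested members called in 16 gene lists, higher to the right and lower to the left of 0, with all 6 libraries (dark bars) and without WT M20 (light bars); dotted lines mark 2.4% and 0.28%, the shares of all tested genes called. Macrophage (20 of 29), MHC class II (9 of 14) and regenerating fibre (12 of 24) bars reach farthest to the right, and the slow and fast fibre bars appear almost only without M20.

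Lama2 itself was reduced in every dyW library. The gene lies at 26980036 to 27619758 on chromosome 10 (mm10). Its values were 3.19, 4.58 and 3.49 RPKM in WT and 0.786, 0.656 and 0.704 RPKM in dyW, means of 3.75 ± 0.731 and 0.715 ± 0.0658 (SD, n = 3 each). The groups did not overlap, and the log2 fold change was -2.67 ± 0.28 (SE; adjusted p = 0.000912), or -2.61 without M20. Reads are summed over the gene, so the remaining dyW reads are not placed on exons.

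Among 10 laminin chains tested Lama2 was the one called lower and none was called higher; the list median was -0.20. Lama4, the α chain of laminin-411 in vessels and embryonic muscle, was at 2.59, 5.07 and 2.4 RPKM in WT and 7.48, 8.03 and 6.61 RPKM in dyW. All dyW libraries were above all WT libraries for Lama4 (0.88 ± 0.22), but it passed the test with M20 left out (adjusted p = 0.0119) and not with all 6 libraries (adjusted p = 0.0584). Lamc3 became a lower call without M20 (-1.80, adjusted p = 0.0456, against -1.41 and 0.218 with it). Lama1, whose product can stand in for laminin-α2 when supplied as a transgene, had no read in any of the 6 libraries. Lama5, another α chain, had a log2 fold change of -0.18 (adjusted p = 0.836).

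The other basement membrane proteins gave 2 lower calls of 12 and none higher, although 7 had a positive fold change. The list median was 0.15, and 0.46 without M20. Without M24 there were 2 higher calls, and DESeq2 called 1 higher. Col4a3 and Col4a4 encode the α3 and α4 chains of collagen IV, best known from kidney. Col4a3 was at 0.209, 0.296 and 0.334 RPKM in WT and 0.11, 0.113 and 0.104 RPKM in dyW. It fell without overlap (-1.64 ± 0.27, adjusted p = 0.0102) and was called in all 15 alternatives. Col4a4 fell by 1.12 on the log2 scale (adjusted p = 0.0150), a call lost without M23 or M21. Nidogen-2 (Nid2), a linker of laminin and collagen IV, was at 5.33, 6.77 and 5.47 RPKM in WT and 12.9, 11.3 and 8.31 RPKM in dyW, short of the threshold (0.59, adjusted p = 0.0530). None of the 20 laminin receptor and dystrophin complex genes was called by edgeR with or without M20, or by DESeq2, and 1 had an unadjusted p under 0.05. Integrin α7 (Itga7) had a log2 fold change of 0.04, dystroglycan (Dag1) -0.28, dystrophin (Dmd) -0.36 and utrophin (Utrn) -0.06.

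Lgals3, which encodes the galactoside-binding lectin galectin-3, lies at 47367751 to 47386160 on chromosome 14 (mm10). It was at 2, 3.23 and 1.31 RPKM in WT and 28.5, 9.9 and 12.3 RPKM in dyW. Every dyW library was above every WT library, M15 by the widest margin. The log2 fold change was 2.65 ± 0.34 (adjusted p = 0.00390) and 2.92 without M20, and the call held in all 15 alternatives. Of the other genes in the galectin list only Lgals3bp was also called, with 1.17 ± 0.19 (adjusted p = 0.00911). It encodes a secreted ligand of galectin-3 and not a galectin. Lgals1 reached 607, 394 and 362 RPKM in dyW against 280.5, 179 and 238 RPKM in WT (0.63, adjusted p = 0.218). All 7 genes tested in the galectin list, Lgals3bp included, had a positive fold change, with a median of 0.63. Macrophages are a known source of galectin-3, and macrophage genes were higher in the same libraries (summed level 51.1 to 57.4 RPKM in WT and 146 to 382 RPKM in dyW, with M15 highest), and their part in the Lgals3 difference was not tested.

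**Figure D3:**
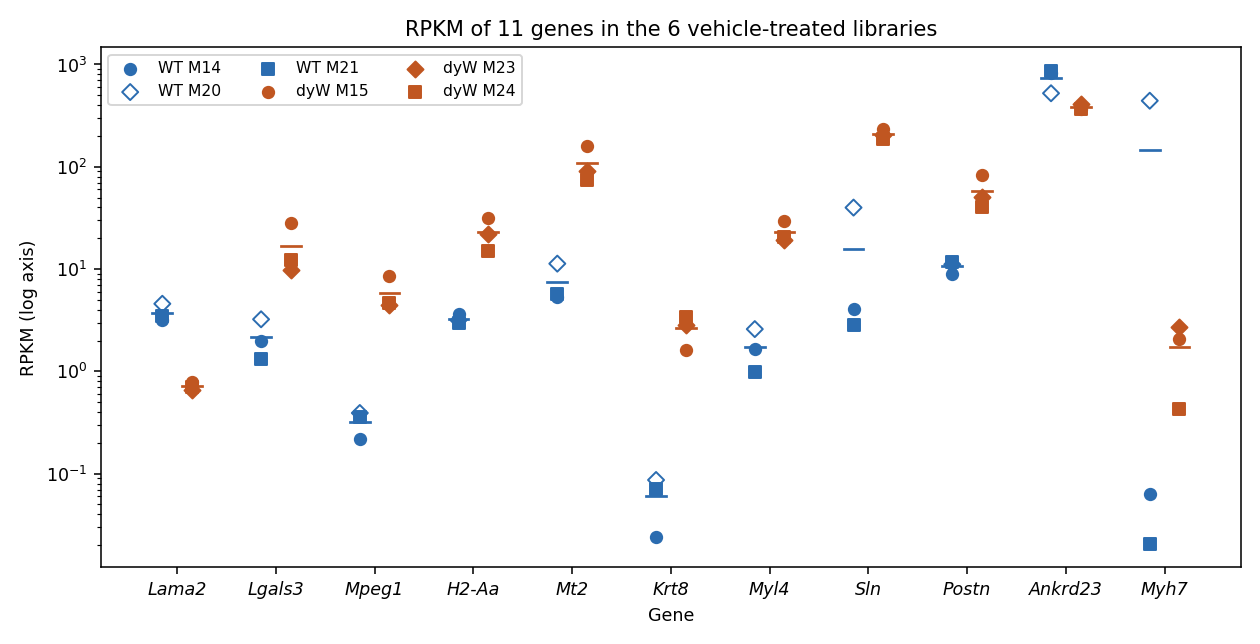
RPKM on a log axis of 11 genes in the 6 libraries, WT in blue and dyW in orange, with 1 symbol per mouse, WT M20 as the open diamond, and a bar at each group mean. The groups are separate for Lama2, Lgals3, Mpeg1, H2-Aa, Mt2, Krt8, Myl4, Sln, Postn and Ankrd23, whereas Myh7 is set apart by M20 at 442 RPKM.

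Genes of embryonic and regenerating fibres had more calls than any other muscle list. Of 24 tested, 12 rose and none fell, with a median of 0.99. Myl4, the embryonic atrial essential light chain, was at 1.64, 2.59 and 0.981 RPKM in WT and 29.4, 19.3 and 20.4 RPKM in dyW. It rose by 3.46 ± 0.28 (adjusted p = 0.000319) and was called in all 15 alternatives. Myh8, the neonatal myosin heavy chain, was at 1.66, 6.13 and 1.97 RPKM in WT and 19.8, 17.8 and 25.2 RPKM in dyW, with M20 the highest WT library. Its log2 fold change was 2.47 with M20 and 3.15 without, and the call was lost without M21.

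The embryonic myosin heavy chain Myh3 shows what M20 does to this list. It was at 0.362, 9.72 and 0.227 RPKM in WT and 9.29, 3.81 and 6.87 RPKM in dyW. M20 exceeded all 3 dyW libraries, and the fold change was 0.80 (adjusted p = 0.746) with M20 and 4.09 (adjusted p = 0.00103) without it. Other members did not depend on M20 in this way: Tnnt2, cardiac troponin T, rose by 2.10, and Ankrd1, a stretch-responsive nuclear and sarcomeric protein, rose by 2.90 from 1.77 to 2.88 RPKM in WT to 18.5 to 28.8 RPKM in dyW. The fusion genes Mymk (listed as Tmem8c) and Mymx (listed as Gm7325), whose membrane proteins let myoblasts merge, rose by 1.55 and 2.88 with M20 and missed the threshold without it (adjusted p = 0.0748 and 0.0725). Without M20 the list again had 12 higher calls, now with Myh3, Tnni1 and Csrp3 in place of Myog and the 2 fusion genes, and 1 lower call, Actc1. Actc1, cardiac α-actin, was at 5952, 2028 and 6467 RPKM in WT and 2441, 3403 and 1357 RPKM in dyW, a change of -1.36 with M20 (adjusted p = 0.185) and -1.76 without (adjusted p = 0.0262). The 12 higher calls became 5 without M15, 6 without M23, 5 without M14 and 8 without M21.

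Satellite cell and myogenic regulators as a group were near the level of all genes, with 1 of 19 called (Myog) and a median of 0.03. Myog, the factor of differentiating myoblasts, was at 12.9, 11.3 and 20.7 RPKM in WT and 63.8, 36 and 35.9 RPKM in dyW. Its groups were separate and it rose by 1.25 ± 0.27 (adjusted p = 0.0324), but missed the threshold without M20 (1.02, adjusted p = 0.0522) and without M15, M23 or M14. Pax7, the marker of satellite cells, was at 1.05, 1.4 and 0.681 RPKM in WT and 1.25, 1.32 and 1.09 RPKM in dyW (-0.04, adjusted p = 0.961).

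Genes that muscle raises after denervation or before innervation gave 6 higher calls of 18 (median 0.57) and 5 without M20. Sox11, a developmental transcription factor, was at 0.15, 0.119 and 0.116 RPKM in WT and 2, 0.951 and 1.17 RPKM in dyW, a rise of 3.08 ± 0.27 (adjusted p = 0.000416) without overlap. Chrng, the fetal γ subunit of the acetylcholine receptor, rose by 2.78, and Runx1, a transcription factor raised in denervated muscle, by 2.15. The count was 3 without M15, 2 without M14 and 3 without M21.

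Krt8 and Krt18, keratins of simple epithelia, were at or near 0 in WT. Krt8 was at 0.0243, 0.0868 and 0.0704 RPKM in WT and 1.63, 2.83 and 3.42 RPKM in dyW, a rise of 5.19 ± 0.57 (adjusted p = 0.00124) that rested on 13 WT reads and 444 dyW reads. Its usual partner Krt18 was at 0.11, 0.41 and 0.163 RPKM in WT and 6.2, 4.38 and 4.62 RPKM in dyW, a rise of 4.21 ± 0.51. Both were called in all 15 alternatives. The keratinocyte genes Krt5 and Krt14 had no read in any of the 6 libraries, and Krt10 was at 0.854 to 1.38 RPKM across both groups. The 11 keratinocyte genes summed to 1.99 to 2.72 RPKM in WT and 3.05 to 3.93 RPKM in dyW. Of the 4 tested, 1 was called higher, a call lost when any 1 of the 6 libraries was left out. Nestin (Nes), an intermediate filament of regenerating fibres, rose by 0.91 and completed the 3 calls of 11 in the list of simple and muscle filaments, a call lost without M15, M23, M24, M14 or M21. Lamin A/C (Lmna) was added without M20.

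The fibre type genes depended on M20. With all 6 libraries 1 of 18 slow fibre genes was called higher and the list median was -1.43. DESeq2 called 3 lower and none higher. Without M20, 8 were called higher and the median was 1.56. Myh7, the slow myosin heavy chain, was at 0.0638, 442 and 0.0207 RPKM in WT and 2.06, 2.7 and 0.426 RPKM in dyW. Its fold change was -6.55 (adjusted p = 0.218) with M20 and 4.91 (adjusted p = 0.0277) without it, so the sign turned. Myl2, the slow regulatory light chain, went from -5.63 to 2.86, and Tnni1, slow troponin I, from -2.56 to 3.16. Myl3, an essential light chain of slow fibres, went from -5.58 to 1.67 and was not called in either case (adjusted p = 0.185 and 0.380). M20 was the highest of the 6 libraries for 17 of the 18 genes.

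Sarcolipin (Sln), an inhibitor of the SERCA calcium pump, was the exception among the slow fibre genes. It was at 4.08, 39.9 and 2.86 RPKM in WT and 235, 206 and 185 RPKM in dyW, so that dyW exceeded M20 as well. It rose by 3.57 ± 0.74 (adjusted p = 0.0279) with M20 and by 5.51 without it. The call was lost without M15, M23, M14 or M21.

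For fast fibre genes the calls rested on M20 in the same way. With all 6 libraries edgeR called none of 20, at a median of -0.58, with 6 at an unadjusted p under 0.05 and 1 lower call by DESeq2. Without M20, 10 were called lower, at a median of -0.84. Ckm, muscle creatine kinase, was at 9112, 5505 and 10052 RPKM in WT and 5904, 7230 and 5768 RPKM in dyW. M20 was below all dyW libraries while M14 and M21 were above them, and the fold change was -0.71 (adjusted p = 0.257) with M20 and -0.98 (adjusted p = 0.0211) without. Pvalb, the fast fibre calcium buffer parvalbumin, was at 20461, 6713 and 17872 RPKM in WT and 14723, 13163 and 11115 RPKM in dyW, and its adjusted p went from 0.533 to 0.0304. The stretch-responsive and Z-disc list had the same dependence, with 1 higher and 1 lower call of 24 against 6 and 2 without M20. Its lower call with M20 was Ankrd23, a titin-associated ankyrin repeat protein, at 826, 523 and 863 RPKM in WT and 370.2, 414 and 371 RPKM in dyW (-1.26 ± 0.26, adjusted p = 0.0278). The 3 dyW values of Ankrd23 were all below the WT values, M20 included, and its fold change was -1.51 without M20, and the call was lost without M15, M23, M24, M14 or M21.

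**Figure D4:**
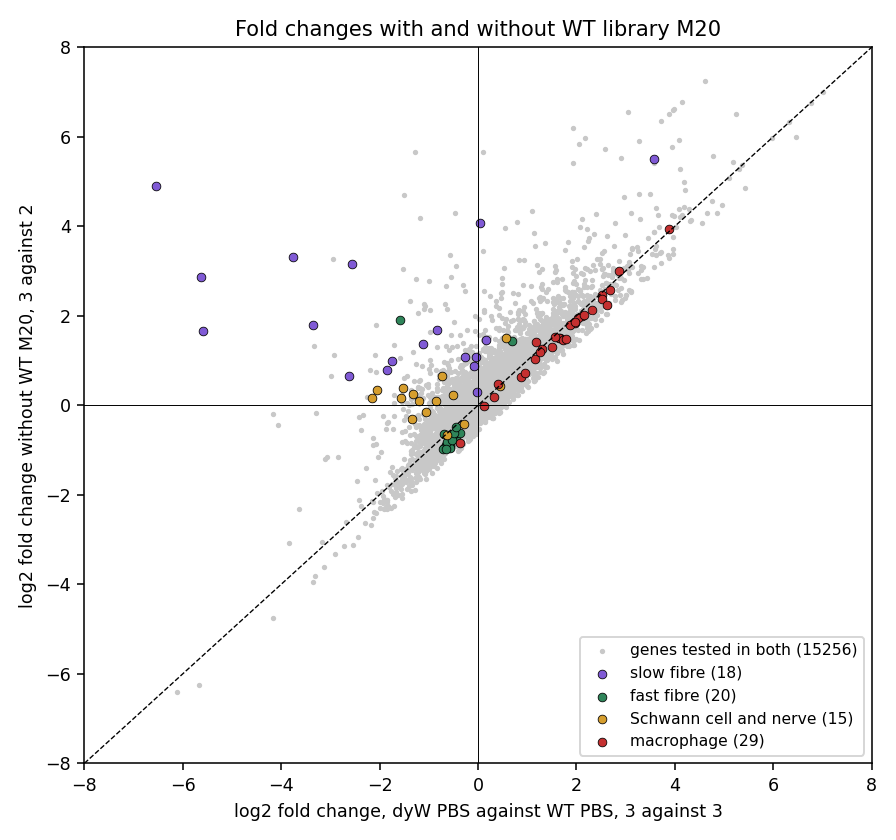
Log2 fold changes of 15256 genes with all 6 libraries (x axis) and without WT M20 (y axis), with the dashed line marking equal values. Slow fibre genes such as Myh7 (-6.55 and 4.91) and Schwann cell genes lie above the line, with 15 of the 18 slow fibre genes below 0 on the x axis and all 18 above 0 on the y axis, while macrophage genes lie along it.

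Macrophage genes were the group with most calls. Of 29 tested, 20 were higher in dyW and none lower, with a median of 1.73; 15 were called without M20, at a median of 1.51. Mpeg1, which encodes the pore-forming perforin-2 of macrophages, was at 0.217, 0.392 and 0.358 RPKM in WT and 8.57, 4.42 and 4.67 RPKM in dyW. No dyW library was near the WT range, and the rise was 3.88 ± 0.32 (adjusted p = 0.000319) with M20 and 3.95 without. Adgre1, the F4/80 antigen, rose by 2.52 and Lyz2, lysozyme M, by 2.11, the latter from 17.1, 17.1 and 19.4 RPKM in WT to 157, 79.7 and 56.6 RPKM in dyW. Mrc1 and Cd163, scavenger receptors of resident macrophages, were not called: Mrc1 (CD206) was at 3.66 to 4.31 RPKM in WT and 5.24 to 8.23 RPKM in dyW (0.33, adjusted p = 0.471), and Cd163 was at 0.41 (adjusted p = 0.571). M15 was the highest library for all 20 called genes, and the count was 10 without M15, 13 without M14 and 10 without M21. The 30 macrophage genes in the files summed to 51.1 to 57.4 RPKM in WT and 146 to 382 RPKM in dyW. In bulk muscle, more cells of a type and more RNA per cell cannot be told apart.

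Genes of lipid-laden phagocytes were called for 6 of 18 with and without M20, at a median of 0.41 and 0.58, and for 4 without M15 or M21. Besides Lgals3 these included Apoe, a carrier of lipid, at 43.3, 49.8 and 35 RPKM in WT and 171, 145 and 104 RPKM in dyW (1.41 ± 0.22, adjusted p = 0.00779). Trem2, a lipid-sensing receptor, was at 0.037 to 0.0668 RPKM in WT and 0.419 to 1.92 RPKM in dyW and rose by 3.69. Spp1, which encodes osteopontin, was not among them, at 5.22, 5.02 and 0.262 RPKM in WT and 10.6, 1.95 and 2.14 RPKM in dyW (0.13, adjusted p = 0.965). Its groups overlapped, with 2 WT libraries above 2 dyW libraries.

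Genes of MHC class II presentation, by which macrophages, dendritic cells and B cells show peptides to CD4+ T cells, were called higher for 9 of 14 with and without M20 (median 1.59 and 1.62). H2-Aa, the α chain of I-A, was at 3.66, 3.16 and 2.96 RPKM in WT and 31.3, 22.2 and 15 RPKM in dyW. It rose by 2.48 ± 0.26 (adjusted p = 0.000912) without overlap and was called in all 15 alternatives. H2-Ab1 rose by 2.29, H2-Eb1 by 2.00 and the invariant chain Cd74 by 2.07. The cathepsin Ctss, which trims the invariant chain, was at 3.39, 3.29 and 3.46 RPKM in WT and 40, 23.7 and 18.3 RPKM in dyW, a rise of 2.68. The count was 7 without M15 or M23, 8 without M14 and 6 without M21. Every call in this list had its highest value in M15. The class II genes are known for a promoter element, the Y box, and the upstream sequences of H2-Aa and H2-Eb1 are shown because both genes rose and hold the letters CTGATTGG. Sequences are from RefSeq (GRCm38.p6), 5′ to 3′ on the gene's strand, from 150 to 11 bases before the start site, with matches on either strand in capitals. H2-Aa is at chr17:34287834-34287973 on the minus strand and H2-Eb1 at chr17:34305717-34305856 on the plus strand.
H2-Aa: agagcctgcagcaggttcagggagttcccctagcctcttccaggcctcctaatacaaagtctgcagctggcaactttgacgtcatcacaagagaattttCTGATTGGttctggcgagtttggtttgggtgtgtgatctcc
H2-Eb1: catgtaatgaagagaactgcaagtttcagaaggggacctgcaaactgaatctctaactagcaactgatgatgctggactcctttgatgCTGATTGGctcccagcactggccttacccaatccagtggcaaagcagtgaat
The match begins 51 bases before the start in H2-Aa and 62 bases before it in H2-Eb1. It is present in 3.03% of 32851 promoter windows of the same length. Of the 9 called genes 6 have a window in the table, and the rest of these, H2-DMb1, Ctss, Ifi30 and Lgmn, do not contain the full CTGATTGG. The H2-DMb1 window holds all but its first letter (TGATTGG), and the Lgmn window holds its last letters, ATTGG.

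Complement genes were called for 9 of 19 (median 1.32) and for 7 without M20. C1qa, a chain of the recognition protein C1q, was at 13, 9.69 and 11.8 RPKM in WT and 77.3, 41.2 and 28.4 RPKM in dyW and rose by 1.74 ± 0.30 (adjusted p = 0.0106). C1ra, a protease of the C1 complex, rose by 1.28 and C3ar1, the receptor of C3a, by 2.42, both called in all 15 alternatives. C4b, at 0.539, 2.91 and 0.634 RPKM in WT and 5.88, 6.39 and 5.54 RPKM in dyW, passed without M20 (2.96, adjusted p = 0.0189) and not with it (1.93, adjusted p = 0.136). The count was 3 without M15, 4 without M14, 3 without M21 and 3 without M23.

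Among chemokines and cytokines 3 of 25 were called, 4 without M20, 6 without M24, 3 without M23, 2 without M15, M14 or M21, and 10 by DESeq2. Ccl8, a monocyte attractant, was at 0.429, 0.511 and 0.0995 RPKM in WT and 14, 6.45 and 3.74 RPKM in dyW, a rise of 4.18 ± 0.70 (adjusted p = 0.0102). Cxcl16, a membrane-bound scavenger and chemokine, rose by 1.75 and Cxcl9, induced by interferon-γ, by 2.31. The interferon response list had 35 of 37 members with a positive fold change and a median of 0.74, but 2 calls with and without M20. These were Ifi27l2a, at 6.25, 6.15 and 6.59 RPKM in WT and 51.7, 30.4 and 33.2 RPKM in dyW (2.28 ± 0.38, adjusted p = 0.0102), and the transcription factor Irf7 (1.43, adjusted p = 0.0150). DESeq2 called 11 of the 37 higher, beside 676 of the 16084 genes to which it gave an adjusted p. By edgeR 1 of the 37 was called without M15 or M21. The list's median level was 0.85 in M15 and 0.12 and 0.09 in M23 and M24, against -0.47 to -0.24 in WT. Without M15 the interferon median became 0.37 and the proliferation median 0.08, from 0.64. No proliferation gene of 30 was called by edgeR or DESeq2, with 4 at an unadjusted p under 0.05, and Mki67 was at 0.662, 0.371 and 0.559 RPKM in WT and 2.51, 0.631 and 0.754 RPKM in dyW.

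Markers of other immune cells gave few calls. Ly6g, a neutrophil antigen, had no read in the 6 libraries, the 13 neutrophil genes summed to 0.415 to 0.648 RPKM in WT and 1.01 to 3.2 RPKM in dyW, and Csf3r was the one called (3.07, adjusted p = 0.0102), not without M21. None of 8 mast cell genes was called by edgeR or DESeq2, with 4 at an unadjusted p under 0.05, although edgeR called 2 without M24. The mast cell genes summed to 9.58 to 13.7 RPKM in WT and 12 to 34.2 RPKM in dyW. Xcr1 was the single call of 9 dendritic cell genes, on 2 WT and 28 dyW reads, and not without M20, M15, M23, M24 or M14. Of 10 T, B and NK cell genes tested, Cd4 was higher (0.0568 to 0.114 RPKM in WT and 0.339 to 0.459 RPKM in dyW, 1.75 ± 0.35), not without M15, M23 or M21. Cd28, a costimulatory receptor of T cells, was lower, at 2.45, 0.883 and 3.3 RPKM in WT and 0.68, 0.319 and 0.34 RPKM in dyW (-2.72 ± 0.49, adjusted p = 0.0140), and not called without M23 or M21. Cd3e, a T cell receptor component, was at 0.0177 to 0.0458 RPKM in WT, so Cd28 exceeded it in every WT library. Ighm, the immunoglobulin μ chain, was at 25.1, 5.15 and 23.2 RPKM in WT and 12.2, 4.96 and 2.67 RPKM in dyW and was a lower call only without M20 (-2.32, adjusted p = 0.0189).

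Of 30 fibrillar matrix and crosslinking genes 2 were called with and without M20, at medians of 0.55 and 0.69: Loxl1, a crosslinking oxidase (1.18), and Col8a1, a short-chain collagen (2.22). Col1a1 was at 269, 709.9 and 251 RPKM in WT and 475, 599.7 and 184 RPKM in dyW, with the highest and the lowest value in M20 and M24 (-0.22, adjusted p = 0.870). Col3a1 was at 122, 151 and 170.4 RPKM in WT and 449.9, 431 and 276 RPKM in dyW, without overlap but short of the threshold (1.07, adjusted p = 0.0770). DESeq2 called 8 of the 30, and none was called without M15, M14 or M21, 1 without M23 and 7 without M24.

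Of 21 matricellular proteins and small proteoglycans, 5 rose (median 0.59, and 5 without M20). Postn, the adhesion protein periostin, was at 9.01, 11.1 and 11.6 RPKM in WT and 83.8, 50.2 and 40.3 RPKM in dyW, a rise of 2.13 ± 0.37 (adjusted p = 0.0129). Lumican (Lum), a collagen-binding proteoglycan, was at 26.1, 22.4 and 27.8 RPKM in WT and 109, 82.6 and 61.3 RPKM in dyW (1.4, called in all 15 alternatives). The count was 1 without M15, 2 without M14, 2 without M21 and 3 without M23. Of 21 matrix proteases and inhibitors, 7 rose (median 0.83, and 7 without M20). Timp1, an inhibitor of metalloproteinases, was at 4.19, 5.91 and 2.23 RPKM in WT and 45.3, 13.4 and 13.6 RPKM in dyW (2.22 ± 0.49, adjusted p = 0.0330). Mmp14, a membrane-bound collagenase, rose by 1.09, Mmp2, the gelatinase it activates, by 1.21 and Mmp19 by 1.61. That count was 1 without M15, 3 without M14, 1 without M21 and 4 without M23.

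In the TGF-β list Fst, the activin and myostatin antagonist follistatin, was the only call of 26, at 0.93 (adjusted p = 0.0368). Tgfb1 was at 2.47, 3.72 and 2.06 RPKM in WT and 6.76, 6.89 and 5.32 RPKM in dyW. Its groups were separate, and it passed without M20 (1.09, adjusted p = 0.0435) but not with it (0.93, adjusted p = 0.0638). Ltbp2, a latent TGF-β binding protein, likewise passed without M20 (2.54, adjusted p = 0.0171) and not with it (1.91, adjusted p = 0.0535), whereas Fst without M20 did not (adjusted p = 0.0670). Fst was not called without M15, M23, M14 or M21 either, and 3 members were called without M24. Of 18 fibroblast and fibro-adipogenic progenitor genes, Lum and Mfap5 were called, 1 of them without M15, M23, M14 or M21, and Pdgfra, their defining receptor, was at 2.41 to 2.68 RPKM in WT and 4.47 to 7.06 RPKM in dyW (0.74, adjusted p = 0.116). Beyond the lists, Mgp, matrix Gla protein, was at 42.2, 48.2 and 28.3 RPKM in WT and 241, 152 and 134 RPKM in dyW (1.85 ± 0.26, adjusted p = 0.00560). Cilp, a matrix protein of the fibroblast and cartilage lineages, was at 20.6, 67.6 and 25.6 RPKM in WT and 167, 176 and 146 RPKM in dyW. It rose by 1.87, and by 2.43 without M20, a call lost without M15, M23, M14 or M21. Cilp was the only call of 16 tendon and cartilage genes, of which 11 had a negative fold change. The median of that list was -0.36, and -0.09 without M20.

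All 3 metallothionein genes tested were higher in dyW. Their proteins bind zinc and copper, and Mt1 and Mt2 respond to metals, glucocorticoids and oxidants. Mt2 was at 5.37, 11.3 and 5.75 RPKM in WT and 161, 91.7 and 74.7 RPKM in dyW, a rise of 3.58 ± 0.47 (adjusted p = 0.00403). Mt1 was at 8.16, 8.66 and 5.67 RPKM in WT and 55, 36.6 and 22.2 RPKM in dyW (2.02), and Mt3 at 3.99, 3.5 and 2.96 RPKM in WT and 37.4, 12.1 and 19.1 RPKM in dyW (2.38). No WT library reached the dyW range of any of them. These were the 3 calls among 9 genes of metallothioneins and zinc handling, with and without M20, and 1 call was left without M21 and 2 without M15 or M23. Mtf1, the zinc-sensing activator of Mt1 and Mt2, was at -0.34 (adjusted p = 0.396). Its metal response element has the core TGCNCNC, and the upstream sequences of Mt1 (chr8:94178939-94179078, plus strand) and Mt2 (chr8:94172468-94172607, plus strand) are shown with the matches on either strand in capitals.
Mt1: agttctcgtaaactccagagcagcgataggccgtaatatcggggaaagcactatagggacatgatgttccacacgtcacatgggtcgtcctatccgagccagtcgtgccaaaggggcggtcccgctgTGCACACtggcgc
Mt2: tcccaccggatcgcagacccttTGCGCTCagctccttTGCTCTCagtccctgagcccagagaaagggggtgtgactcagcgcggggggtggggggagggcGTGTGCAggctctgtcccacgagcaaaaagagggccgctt
Mt1 holds 1 match, 23 bases before the start, Mt2 holds 3, at 128, 113 and 50 bases before it, and the window of Mt3 holds none. A match is present in 29.4% of all windows, so 1 match is common. The share of windows with 3 matches was not counted, so the number in Mt2 has no baseline here. Bases on either side of these windows were not searched, so elements there are not counted.

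Stress and survival genes gave scattered calls. Of 20 p53 targets, 4 rose (median 0.13): Pmaip1, the BH3-only protein Noxa, by 4.29 on 5 WT and 85 dyW reads, Cdkn1a, the cell cycle inhibitor p21, by 1.48, Phlda3 by 1.24 and Eda2r by 1.66. Cdkn1a was at 7.94, 20.3 and 10.6 RPKM in WT and 46.8, 36.4 and 45.8 RPKM in dyW, without overlap (adjusted p = 0.0132). That count was 4 without M20, 2 without M15, M14 or M24 and 1 without M21. Of 24 genes of oxidant defence and NADPH oxidase, 3 rose: Aldh3a1, Cybb and Nox4, each called in all 15 alternatives. Aldh3a1, an aldehyde dehydrogenase, was at 0, 0.0807 and 0.0262 RPKM in WT and 2.06, 2.11 and 0.76 RPKM in dyW, a rise of 5.24 ± 0.71 (adjusted p = 0.00508) on 8 WT and 281 dyW reads. Nox4, the oxidase of fibroblasts and vessels, was at 0.153 to 0.222 RPKM in WT and 0.565 to 1.12 RPKM in dyW (1.70). Of 20 lysosomal genes, 5 rose, among them Lgmn (1.22) and Ctsk (1.18). The count was 4 without M20, 3 without M15, M23 or M14 and 2 without M21. None of 23 genes of the integrated stress and unfolded protein responses was called by edgeR with M20, with 4 at an unadjusted p under 0.05. DESeq2 called 1 higher and 1 lower, and Psat1, of serine synthesis, was called without M20.

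Metabolic genes showed small differences. All 34 nuclear genes of oxidative phosphorylation had a negative fold change, with a median of -0.38. On log2 CPM after TMM scaling, 24 of them were lower in all 3 dyW than in all 3 WT libraries. That pattern was present in 6.51% of all tested genes. Their summed RPKM, without that scaling, overlapped between the groups, at 7487 to 8724 in WT and 7237 to 7587 in dyW. None of the 34 was called by edgeR, with or without M20, or by DESeq2. An unadjusted p under 0.05 was found for 10 of them, against 2315 of all 15331 genes tested. Cox8b, a subunit of complex IV, was at 815, 528 and 521 RPKM in WT and 545, 482 and 472 RPKM in dyW (-0.63, adjusted p = 0.252). All 13 mitochondrially encoded genes were also negative (median -0.52), with no edgeR call, 5 at an unadjusted p under 0.05 and 3 lower calls by DESeq2. The size of these shifts depends on scaling: on log2(RPKM + 0.1), where the median of all genes moved to 0.25, the list medians were -0.08 and -0.21. Glycolysis and glycogen genes had 1 higher call of 26, Hk1, at 1.37, 2.19 and 1.12 RPKM in WT and 3.88, 3.7 and 3.09 RPKM in dyW (0.92), and 4 lower calls without M20, which were Phkg1, Aldoa, Pgam2 and Eno3. With M20 edgeR called none lower and DESeq2 called 1, Phka1. In fatty acid and ketone oxidation Oxct1, the enzyme that lets muscle use ketone bodies, was the single call of 27, at 42.4, 53.4 and 42.3 RPKM in WT and 34.3, 33.2 and 32 RPKM in dyW (-0.76 ± 0.15, adjusted p = 0.0208). The Oxct1 and Hk1 calls were both lost without M15, M23, M14 or M21.

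Lower genes were few. Among those with an established symbol, a WT mean of at least 1 RPKM and no overlap, Cd28 and Lama2 were followed by fold by Rmi2, a DNA repair factor (-2.12), Myo5c, a class V myosin (-1.62), Alpl, tissue-nonspecific alkaline phosphatase (-1.54), and Arrdc2, an arrestin-related gene (-1.53). Arrdc2 was at 18.3, 16.6 and 29.2 RPKM in WT and 5.87, 8.2 and 13 RPKM in dyW, without overlap. Asb2, a ubiquitin ligase subunit of muscle, was at 65, 61.5 and 71.2 RPKM in WT and 33.8, 42.1 and 49.7 RPKM in dyW (-0.94), and Capn3, the muscle calpain, at 27.3, 27.3 and 30.5 RPKM in WT and 18.9, 21.6 and 19.5 RPKM in dyW (-0.80). Lrtm1, a leucine-rich repeat membrane protein, fell by 1.09 on the log2 scale and was called in all 15 alternatives. The calls of Arrdc2, Asb2, Capn3 and Myo5c were lost without M15, M23, M14 or M21, that of Rmi2 without M15, M14 or M21, and that of Alpl without M20, M15, M23, M24 or M14.

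Several tissue marker lists had no call by edgeR or DESeq2 with all 6 libraries. Unadjusted p were under 0.05 for 4 of 15 Schwann cell, 2 of 14 adipocyte, 1 of 15 endothelial, 1 of 13 smooth muscle and 0 of 7 erythroid genes. Over all genes tested the count was 2315 of 15331. The Schwann cell list had a median of -1.06 with M20 and 0.17 without, the adipocyte list 1.02 and 2.36, the endothelial list -0.26 and 0.13, and the smooth muscle list -0.39 and 0.04. The adipocyte median was -0.04 without M24. Adipoq, the adipocyte hormone adiponectin, was at 2.09, 16.4 and 3.74 RPKM in WT and 15.2, 18.7 and 26.4 RPKM in dyW (1.27, adjusted p = 0.458, and 2.42, adjusted p = 0.0937, without M20). Retn was the 1 adipocyte gene called without M20. The part of the nerve, fat and slow fibre transcripts of M20 in other genes was not tested beyond leaving M20 out.

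Genes that edgeR did not call with all 6 libraries and called without M20 included, beside the slow fibre genes, Serpina3n, a serine protease inhibitor. It was at 0.0743, 1.91 and 0.283 RPKM in WT and 5.83, 3.37 and 4.4 RPKM in dyW (2.39, adjusted p = 0.107 with M20, and 4.28, adjusted p = 0.00341 without). Haptoglobin (Hp), a hemoglobin-binding plasma protein, was at 1.96, 12.9 and 2.53 RPKM in WT and 19.2, 21.6 and 32.7 RPKM in dyW (1.91 and 3.08). Ankrd2, a stretch-responsive protein of slow fibres, was at 9.46, 130.0 and 4.55 RPKM in WT and 43, 27.5 and 152 RPKM in dyW (0.53 and 3.06). Of the 15 alternatives, the one without M20 included, Serpina3n was called in 5, Hp in 2, Plcd4 in 5 and Gpd2 in 3. Among lower calls of this kind were Plcd4, a phospholipase C (-1.34), and Gpd2, the mitochondrial glycerol phosphate dehydrogenase (-1.23), whose adjusted p with M20 were 0.0529 and 0.0551.

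The untreated cohort, which shares no library with the vehicle cohort, gave a second set of dyW and WT quadriceps. There 3671 of 14846 genes were higher (24.7%) and 3724 were lower (25.1%). Of the 368 genes higher in vehicle dyW, 343 (93.2%) were also called higher in untreated dyW, which is 9.34% of the untreated higher calls, and none was called lower. Of the 43 lower genes, 39 (90.7%) were also called lower, 1.05% of the untreated lower calls. The median log2 fold change of the higher genes tested in both was 1.66 in the vehicle cohort and 2.05 in the untreated one, and 257 of 367 were larger in the untreated cohort. For the lower genes the medians were -1.06 and -1.76. Age label, vehicle and cohort differ together between these sets and cannot be told apart.

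**Figure D5:**
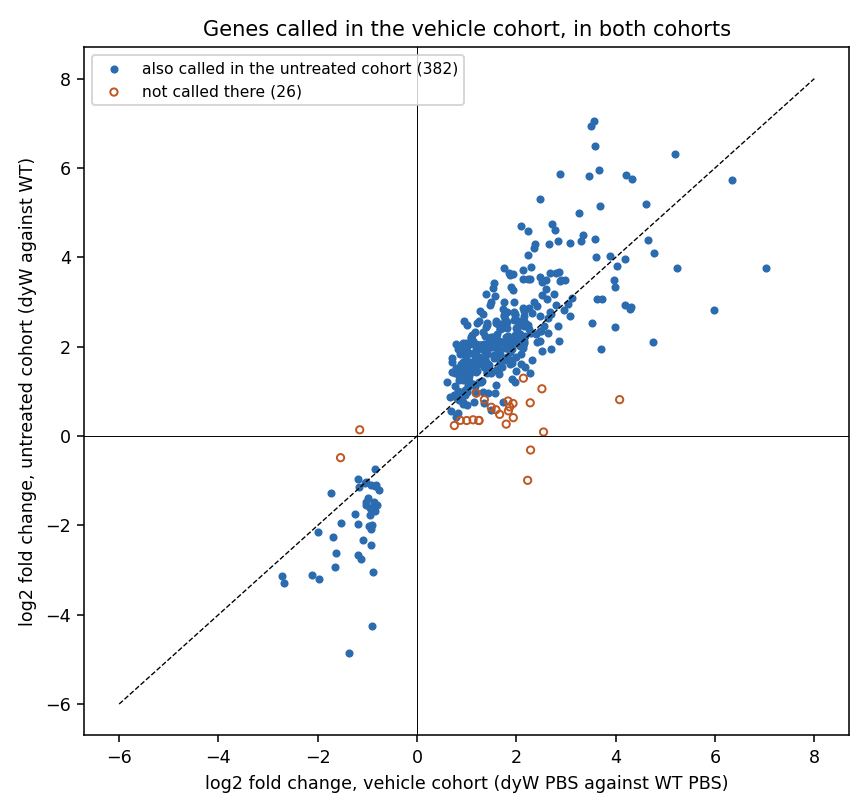
Log2 fold changes of the 408 genes called in the vehicle cohort and tested in both cohorts, vehicle on the x axis and untreated on the y axis, with the dashed line at equal values. The 382 filled points were called in the same direction in the untreated cohort and the 26 open points were not called there.

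A test of the difference between the cohorts called 272 of 15771 genes (1.72%), 189 with a more positive dyW effect in the vehicle cohort (1.2%) and 83 with a more negative one (0.526%). Myl4 was at 0.564 RPKM in untreated WT and 46.5 RPKM in untreated dyW (means), against 1.74 and 23 RPKM with vehicle, and its fold change was 5.83 against 3.46 (difference -2.35, adjusted p = 0.0266). Myh8 had 5.30 against 2.47. Cx3cl1, the chemokine fractalkine, had 3.44 against 0.97, and Ppp1r3c, a glycogen-targeting subunit of protein phosphatase 1, had -2.19 against -0.12. Lgals3 had 4.30 against 2.65, a difference that missed the threshold (-1.64, adjusted p = 0.0567), and Lama2 had -3.29 against -2.67 (adjusted p of the difference 0.296). The count of differences was not stable: it was 0 when M23, M24, untreated WT 2499 or untreated dyW 2557 was left out and 2 without M20.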

How the data were processed

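Polyadenylated RNA of quadriceps was sequenced as paired reads from a stranded library, per the labels' protocols. The authors deposited 1 table per library with whole-number exon read counts per gene (total and unique) and RPKM values, per the file headers, with gene positions on mm10, per the submitters' processing notes. The aligner and counter, and whether a count is a read or a pair, are not given in the sources used here. Of 48709 genes listed, 31665 have an exon length, and the others have no reads.

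Total exon read counts were tested with edgeR 4.0.16 (R 4.3.3): filterByExpr with its minimum count of 10 and total of 15, TMM scaling, a quasi-likelihood test and Benjamini-Hochberg adjustment over all genes tested. The 11 libraries named for PBS or TD139 entered as 4 groups with a shared spread. The cohort difference used all 18. RPKM serve as levels only. Each library has its own animal number, and p-values measure the spread between these animals.

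Alternatives were DESeq2 1.42.0, limma 3.58.1 on log2(RPKM + 0.1) and log2(RPKM + 1), other scaling, no filter, a sex term, other sets of libraries, unique reads and each library left out. Named genes are Lama2, Lgals3, up to 12 per direction by fold (mean RPKM of at least 1, no overlap), up to 10 by RPKM difference, up to 10 called without M20 and not with it, up to 6 by cohort difference and up to 4 members per list by p. Other list members named were chosen after their values were seen. The members and lists were chosen with earlier results of these data known. The fitting was tested on simulated data.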

Additional observations from a re-analysis of the deposited data

Results flagged for a closer look

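The dyW effect differed between the vehicle cohort (age label 3 weeks) and the untreated cohort (age label 5 weeks) for 272 genes by edgeR's quasi-likelihood test of the difference with Benjamini-Hochberg adjustment. Vehicle, age label and cohort cannot be told apart, and leaving out 1 library gave counts from 0 to 637. The 12 genes given are ranked first by p in either direction, leaving out genes whose group means were all under 1 RPKM.

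The dyW effect was more positive in the vehicle cohort for Htra4, a serine protease, with a difference of 3.39 (log2 fold change 1.29 with vehicle and -2.08 untreated). Ppp1r3c, a glycogen-targeting subunit of protein phosphatase 1, differed by 2.08 (-0.12 and -2.19) and Irs1, the insulin receptor substrate, by 1.71 (-0.26 and -1.96). Tmtc1 differed by 2.07, B3galnt2, a glycosyltransferase of dystroglycan, by 1.41 (-0.25 and -1.65) and Osgepl1 by 0.96.

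In the other direction, Lpcat2, a phospholipid acyltransferase, differed by -3.27 (0.52 with vehicle and 3.80 untreated), Myh8 by -2.81, Cx3cl1 by -2.45, Myl4 by -2.35, Mamdc2 by -1.67 and Gsto1 by -1.12. For Myh8 and Myl4 both cohorts had higher dyW values, with fold changes of 2.47 and 5.30 for Myh8 and 3.46 and 5.83 for Myl4. Adjusted p were 0.0232 for Lpcat2, 0.0319 for Gsto1 and 0.0266 for the other 10 genes.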

How the results depend on the processing

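The 411 genes called in dyW against WT became 845 with DESeq2, of 16084 with an adjusted p. The count was 952 with limma on log2(RPKM + 0.1) and 814 with limma on log2(RPKM + 1). It was 193 with the 6 vehicle libraries alone and 656 with all 18 libraries in 6 groups. Leaving out 1 library gave 125 (without WT M21) to 601 (without WT M20). Calls lost with the 6 vehicle libraries alone included Sln, Ankrd23, Arrdc2, Asb2, Capn3, Oxct1 and Rmi2. The limma fits, on RPKM without TMM scaling, had medians over all genes of 0.25 and 0.14 against -0.03, and 931 of the 952 and 796 of the 814 calls were higher. The 272 genes that differed between cohorts became 1213 with DESeq2, and 0 to 637 when 1 library was left out. The cause was not tested. Lama2 was called lower and Lgals3 higher in all 15 alternatives. Depth was lowest in dyW M15, and the fold changes of genes with few WT reads, such as Krt8 and Aldh3a1, are imprecise. No paired analysis was possible because the animal numbers differ between the groups.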
